A study of Homo sapiens with 6 samples.

Results

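The ADAM and ADAMTS genes encode zinc metalloproteases of the adamalysin family, together with relatives that lack protease activity. The 41 genes described here are the protein-coding genes whose symbol is ADAM, ADAMTS or ADAMTSL followed by a number and that had a probe set of their own, out of 19775 genes measured. They were chosen by symbol, each read by its brightest probe set over the 6 arrays. Of 44 such genes in RefSeq, ADAM29 was read only by a probe set shared with another gene, and ADAM7 and ADAMTS7 were not analysed here. Pseudogenes, antisense and divergent transcripts that matched the name, 9 in all, were left out.

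The arrays compared 3 samples of cells labelled S153E-RKIP with 3 control samples, on Affymetrix HG-U133 Plus 2.0. All are 1833 cells, derived from the human breast cancer line MDA-MB-231 and known for homing to bone, and all were grown with 10% serum. The S153E-RKIP cells were transduced with a lentiviral vector for a mutant of RKIP that the series calls a more potent Raf-1 inhibitor, and were kept in 0.5 µg/ml puromycin. RKIP is the product of PEBP1, and it holds back the MEK and ERK cascade by binding Raf-1. The controls are described as vector control. The labels do not state if they received puromycin, nor if clones or pools were used. They call the samples biological replicates but name no separate cultures, so p-values reflect only how much these arrays vary, perhaps for technical reasons. Precision is limited by the number of arrays.

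Membrane ADAMs cut cell surface proteins near the membrane, a step called shedding that frees growth factors such as the EGF receptor ligands and opens Notch to activation. ADAMTS enzymes are secreted and carry thrombospondin repeats that hold them in the matrix, where they cut proteoglycans, procollagens and other matrix proteins. ADAMTSL proteins share the repeats and lack the protease domain. In breast cancer the family is known for releasing EGF receptor ligands, and ADAMTS1 has been tied to bone metastasis through such release.

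On the arrays labelled S153E-RKIP, ADAMTS9 and ADAM8 were called higher and no member of the family was called lower (limma, adjusted p under 0.05 over all 19775 genes). ADAMTS9, a secreted protease that cuts versican and aggrecan, rose 1.84-fold, and ADAM8, a membrane protease best known from leukocytes and from invasive breast cancer, rose 1.44-fold. With each of the 6 arrays dropped in turn, the call of ADAMTS9 was always kept, while that of ADAM8 was lost in 5 cases. The 2 calls are 4.88% of the 41 members, beside 1.9% of all genes called, 0.688% higher and 1.21% lower. The main sheddases ADAM10 and ADAM17 were not called, and neither was ADAM9.

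The promoters of ADAM8, ADAM10 and ADAM17 are shown as those of a called shedding member and of the main sheddases, which were not called. They were chosen by that outcome, and whether these genes differ from each other in their change was not tested. Each stretch of 300 bases spans the RefSeq gene start on the minus strand of GRCh38.p14, at chr10:133276819-133277118 for ADAM8, chr15:58749658-58749957 for ADAM10 and chr2:9555781-9556080 for ADAM17. Capitals mark matches on either strand to the GC box GGGCGG and the ETS motif CCGGAAG. No capitals mark AP-1 (TGANTCA), a kappaB form (GGG and TTCC with any 3 bases between) or CRE (TGACGTCA), which were also searched on both strands and had no match in these windows.
ADAM8: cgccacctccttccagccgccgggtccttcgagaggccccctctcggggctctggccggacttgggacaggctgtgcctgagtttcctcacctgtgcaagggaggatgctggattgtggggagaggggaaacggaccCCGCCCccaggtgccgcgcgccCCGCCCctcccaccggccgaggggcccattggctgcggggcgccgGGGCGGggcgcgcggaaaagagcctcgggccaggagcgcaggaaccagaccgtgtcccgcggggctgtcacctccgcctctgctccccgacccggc
ADAM10: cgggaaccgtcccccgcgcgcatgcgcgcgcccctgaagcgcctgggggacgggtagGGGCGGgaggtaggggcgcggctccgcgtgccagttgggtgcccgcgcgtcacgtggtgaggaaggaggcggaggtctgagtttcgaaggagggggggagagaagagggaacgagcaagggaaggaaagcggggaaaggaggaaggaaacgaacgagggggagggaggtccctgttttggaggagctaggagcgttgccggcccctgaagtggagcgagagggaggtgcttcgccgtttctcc
ADAM17: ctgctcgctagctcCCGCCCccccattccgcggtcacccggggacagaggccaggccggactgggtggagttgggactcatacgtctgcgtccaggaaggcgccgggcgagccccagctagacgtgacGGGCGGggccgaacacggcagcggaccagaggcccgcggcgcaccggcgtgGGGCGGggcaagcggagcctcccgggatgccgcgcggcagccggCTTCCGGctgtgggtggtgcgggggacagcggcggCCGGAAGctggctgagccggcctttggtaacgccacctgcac

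ADAM8 held 3 GC boxes, ADAM10 held 1, and ADAM17 held 3 GC boxes and 2 ETS matches, none overlapping another motif. The table of promoters holds 27 of the 41 members, ADAMTS9 not among them. A GC box was found in 21 of these (77.8%), against 44.6% of all 27305 promoters, with a median G and C content of 72.0% in the 27 and 58.3% in all. The ETS motif was in 1 of the 27 (3.70%), ADAM17 itself, against 10.7% of all. The AP-1 letters were in 1 (3.70%, against 7.76%), the kappaB form in 2 (7.41%, against 6.47%) and CRE in 1 (3.70%, against 1.98%). These are matches of letters and say nothing about binding.

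The labels were checked on PEBP1, which had 11.74, 11.64 and 11.61 on the S153E-RKIP arrays and 11.77, 11.73 and 11.77 on control arrays (log2 RMA signal). Its difference, S153E-RKIP minus control here and throughout, was -0.093 (SE 0.058, limma adjusted p = 0.473). Whether its probe sets lie within the introduced sequence was not tested. The source name of the S153E-RKIP samples speaks of shRNA against HMGA2, and HMGA2 had a difference of -0.023 (SE 0.058, limma adjusted p = 0.882), so every direction rests on the label S153E-RKIP. S153E-RKIP replicate 1 stood apart from replicates 2 and 3 on the second principal component. All 8 markers that mark MDA-MB-231 by high expression lay above the median signal of all genes (6.64), and so did 4 of 8 genes that should be low, EPCAM, GATA3, CLDN4 and ESR1. No marker of blood cells (9 measured) or of fibroblasts, osteoblasts and endothelium (11 measured) was called, which does not tell if such cells were present. By mean signal, 1 of the 9 (PECAM1, 7.22) and 2 of the 11 (RUNX2, 9.63, and COL1A1, 8.23) lay above the median of all genes.

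**Figure D1:**
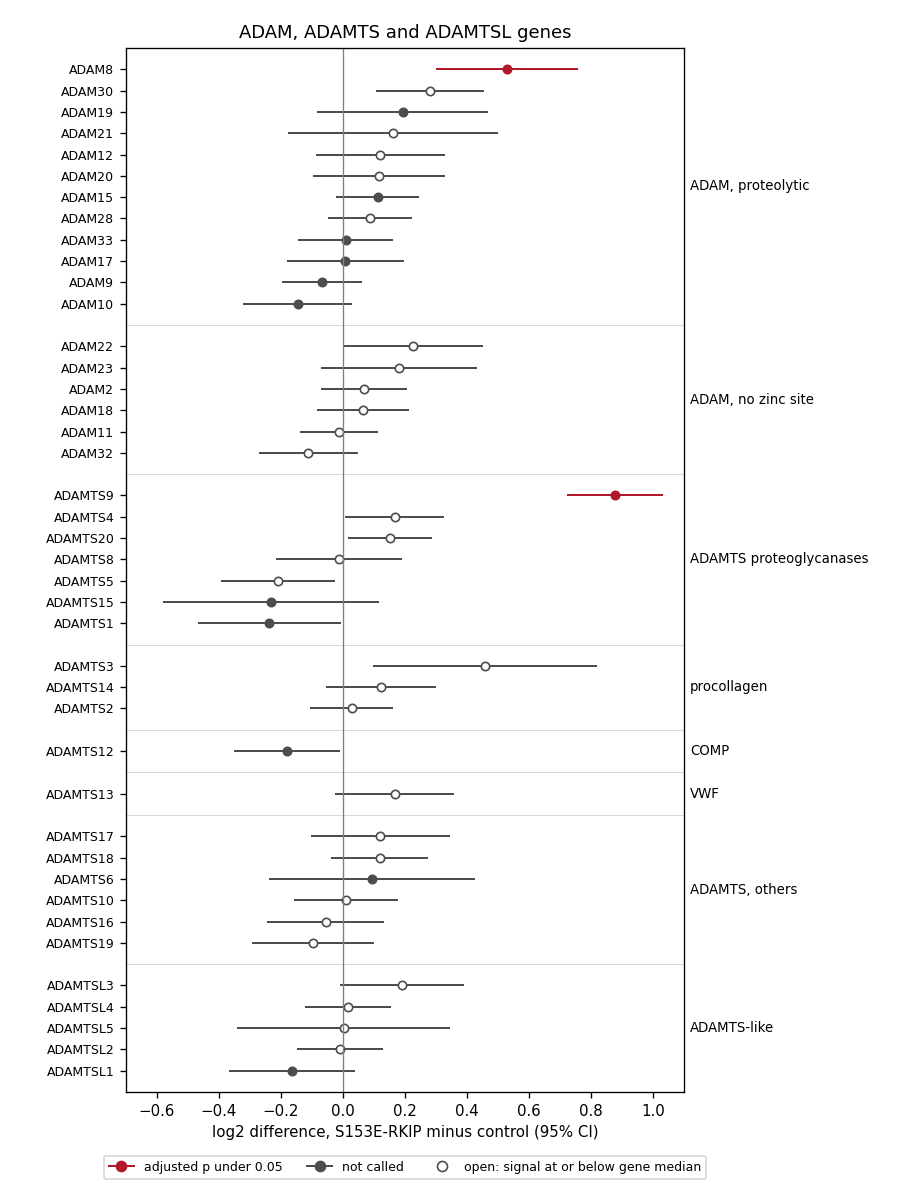
Log2 difference, S153E-RKIP minus control, of the 41 genes by role, with its 95% confidence interval from limma (3 arrays a group). Red marks ADAMTS9 (0.88) and ADAM8 (0.53), open points mark genes whose mean signal is at or below the median of all genes, and labels on the right name the roles.

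ADAMTS9 lies on chromosome 3 (64515654 to 64688000, GRCh38.p14). Its signal was 7.67, 7.51 and 7.56 in S153E-RKIP replicates 1, 2 and 3, against 6.64, 6.69 and 6.77 in control replicates 1, 2 and 3. All S153E-RKIP arrays were above all control arrays, by far more than the spread within either group. The means were 7.58 ± 0.083 in S153E-RKIP and 6.70 ± 0.063 in control (SD, n = 3 each), a difference of 0.88 (SE 0.066, 95% confidence interval 0.73 to 1.03, limma adjusted p = 5.00e-04). ADAMTS9 has 4 probe sets, and all had a difference above 0. Tested on their own over all probe sets, the brighter pair was called (0.88 and 0.76, limma adjusted p = 6.38e-04 and 0.0111), while the dimmer pair, with mean signals of 4.81 and 4.61, was not (0.20 and 0.18, limma adjusted p = 0.224 and 0.514). With the mean of all 4 probe sets the difference was 0.50 (limma adjusted p = 0.00516).

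The antisense transcript ADAMTS9-AS2, which is not a member and was chosen after its value was seen, had 5.78, 5.71 and 5.69 in S153E-RKIP and 5.55, 5.52 and 5.52 in control. The groups did not overlap, and its difference of 0.20 (SE 0.055) was not called (limma adjusted p = 0.145). ADAMTS9-AS1 had a difference of 0.096 (limma adjusted p = 0.692).

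ADAM8 lies on chromosome 10 (133262423 to 133276868, GRCh38.p14). Its signal was 8.44, 8.68 and 8.73 on the S153E-RKIP arrays and 7.95, 8.22 and 8.10 on control arrays. The groups did not overlap, though S153E-RKIP replicate 1 was close to control replicate 2. The means were 8.62 ± 0.16 in S153E-RKIP and 8.09 ± 0.14 in control (SD, n = 3 each), a difference of 0.53 (SE 0.099, 95% confidence interval 0.30 to 0.75, limma adjusted p = 0.0387). The dimmer of its 2 probe sets also had all S153E-RKIP arrays above all control arrays (0.27), and tested over all probe sets neither was called (limma adjusted p = 0.0529 and 0.122). The call of ADAM8 was lost when any of 5 arrays was dropped, with limma adjusted p of 0.162 and 0.114 without S153E-RKIP replicates 2 and 3, and of 0.171, 0.0683 and 0.156 without control replicates 1, 2 and 3. In those 5 cases its difference lay between 0.46 and 0.59. Without S153E-RKIP replicate 1 it was 0.62 and the call was kept (limma adjusted p = 0.0280).

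Since ADAM8 is also a leukocyte gene, the blood cell markers stand beside it. Of the 9 measured, 8 had a difference above 0 and none was called. Their median difference was 0.084, and their summed linear signal ran from 525 to 615 on S153E-RKIP arrays and from 520 to 556 on control arrays. Only 1 of the 9 had a mean signal above the median of all genes. Of all genes at or below that median, 68.9% had a difference above 0, and their median difference was 0.053. CD3E had the greatest difference of the 9 (0.29, SE 0.079, limma adjusted p = 0.139), with groups that did not overlap. PTPRC, the pan-leukocyte marker CD45, averaged 3.98 in S153E-RKIP and 3.88 in control, with groups that did not overlap, at the 8.53 percentile of all genes' signals (limma adjusted p = 0.432). The part of these markers in the result was not tested. In bulk RNA, more cells of a type and more RNA per cell cannot be told apart.

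**Figure D2:**
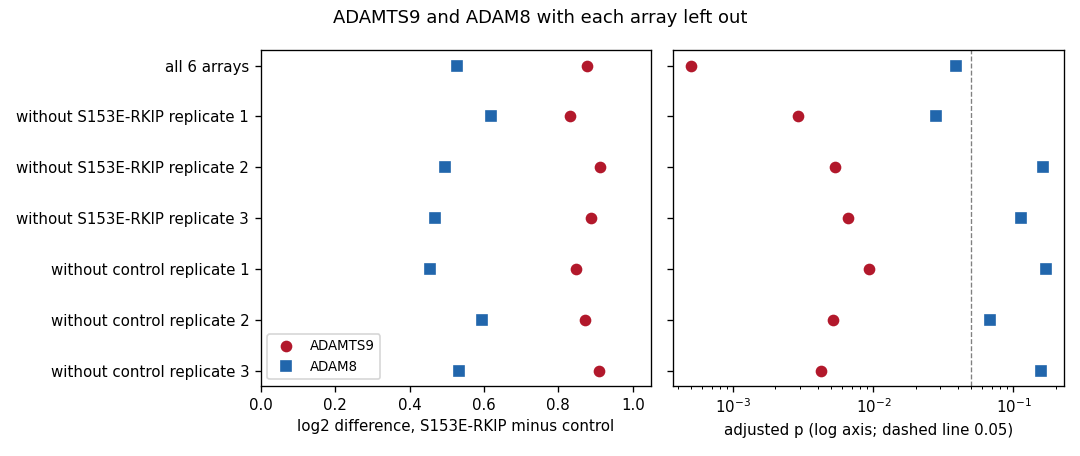
Log2 difference (left) and limma adjusted p on a log axis (right) of ADAMTS9 (circles) and ADAM8 (squares), with all 6 arrays and with each array left out. ADAMTS9 stayed under 0.05 in every case, at most 0.00929, while ADAM8 was above 0.05 with 5 of the 6 arrays left out singly.

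Of the 12 measured ADAMs that carry an active zinc site, ADAM8 was called and the other 11 were not. Differences ran from -0.15 to 0.53 with a median of 0.11. ADAM10, the protease that cuts Notch and many adhesion molecules, had 10.729, 10.956 and 10.973 in S153E-RKIP and 11.043, 11.055 and 10.999 in control. Every S153E-RKIP array was below every control array, but replicate 1 was set apart from the other S153E-RKIP arrays. S153E-RKIP minus control came to -0.15 (SE 0.076, interval -0.32 to 0.027, limma adjusted p = 0.389), and without S153E-RKIP replicate 1 it was -0.068 (limma adjusted p = 0.580). All 3 probe sets of ADAM10 had non-overlapping groups with S153E-RKIP lower.

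ADAM17, the protease that frees TNF and several EGF receptor ligands, had 8.97, 9.22 and 9.17 in S153E-RKIP and 9.06, 9.21 and 9.07 in control. The groups overlapped throughout, with a difference of 0.0067 (95% confidence interval -0.18 to 0.19, limma adjusted p = 0.978). That sign has no meaning, since with the mean of its 3 probe sets the difference was -0.047 and with equal array medians -0.014. ADAM9, another sheddase, had 11.898, 11.948 and 11.957 in S153E-RKIP and 11.997, 11.962 and 12.045 in control. Its groups parted by a narrow margin, S153E-RKIP lower, with a difference of -0.067 (SE 0.055, limma adjusted p = 0.583).

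ADAM15, which carries an integrin-binding disintegrin domain, had 8.38, 8.37 and 8.30 in S153E-RKIP and 8.24, 8.28 and 8.19 in control. The S153E-RKIP arrays were the higher ones on both of its probe sets, by little: 0.11 on the brighter one (SE 0.057, limma adjusted p = 0.380). ADAM19, a sheddase of neuregulin, had 6.79, 7.13 and 7.23 in S153E-RKIP and 6.78, 7.02 and 6.77 in control. Its groups overlapped, the difference was 0.19 (SE 0.12, limma adjusted p = 0.466), and without S153E-RKIP replicate 1 it was 0.32 (limma adjusted p = 0.179). Without S153E-RKIP replicate 3 it was 0.10 (limma adjusted p = 0.682). ADAM12, known for shedding HB-EGF, had overlapping groups and a difference of 0.12 (SE 0.089, limma adjusted p = 0.537), which was 0.029 without control replicate 3 and 0.021 when its probe sets were averaged. Its 5 probe sets had mean signals from 3.93 to 6.06, all below the median of all genes.

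ADAM30, a testis gene, had 5.04, 4.95 and 4.81 in S153E-RKIP and 4.64, 4.72 and 4.60 in control. The groups did not overlap, and the difference of 0.28 (SE 0.074) had an unadjusted p of 0.00502 and was not called (limma adjusted p = 0.128). Its second probe set had a difference of -0.025.

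**Figure D3:**
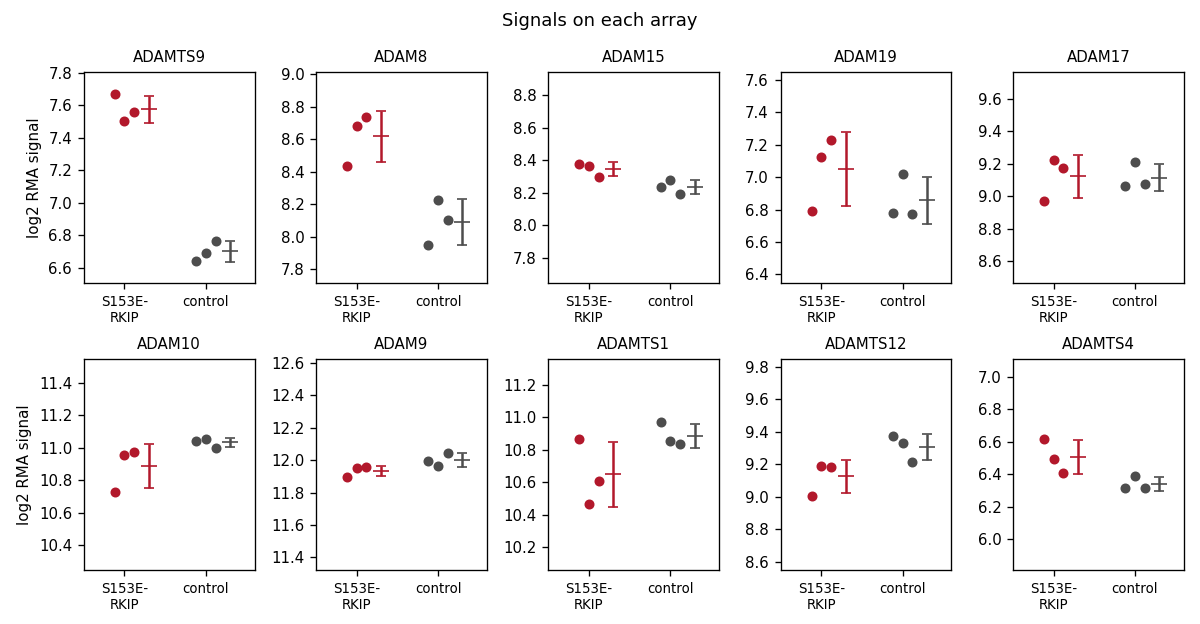
Log2 RMA signal of 10 members on each array, S153E-RKIP (red) left of control (grey), replicates 1 to 3 from left to right in each group, with the mean and SD (n = 3) beside the points. ADAMTS9 (7.58 against 6.70) and ADAM8 (8.62 against 8.09) are the members called, and axes span at least 1.3 log2 units, so that heights can be compared between panels.

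None of the 6 measured ADAMs without an active zinc site was called. These proteins act in adhesion, in fertilisation or, as ADAM22 and ADAM23 do, in neurons as receptors of LGI proteins. All 6 had mean signals below the median of all genes, and differences ran from -0.11 to 0.23. ADAM22 had 6.27, 6.01 and 6.29 in S153E-RKIP and 5.88, 6.12 and 5.88 in control. Control replicate 2 lay above S153E-RKIP replicate 2, so the groups overlapped, and the difference was 0.23 (SE 0.098, limma adjusted p = 0.315). That value comes from a probe set ending in _x_at, a class prone to cross-hybridise, and leaving that class out the difference was -0.032, read from the brightest of its other probe sets. Of the 8 probe sets of ADAM22, 6 had a difference above 0. Among the dimmer ones not of that class, 1 with a mean signal of 4.33, had non-overlapping groups and a difference of 0.31 (SE 0.074, limma adjusted p = 0.125 over all probe sets).

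Among the 7 measured proteoglycanases of the ADAMTS group, ADAMTS9 was called and the other 6 were not, 2 of them with a difference above 0 and 4 below. ADAMTS1, which cuts versican and is linked to bone metastasis, had 10.86, 10.47 and 10.61 in S153E-RKIP and 10.97, 10.85 and 10.83 in control. S153E-RKIP replicate 1 reached into the control range while the other S153E-RKIP arrays lay below it. S153E-RKIP minus control came to -0.24 (SE 0.10, interval -0.47 to -0.0096, limma adjusted p = 0.303), and without S153E-RKIP replicate 1 it was -0.35 (limma adjusted p = 0.0908). Without S153E-RKIP replicate 2 it was -0.15 (limma adjusted p = 0.516). Its second probe set gave -0.27.

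ADAMTS4, an aggrecanase, had 6.62, 6.49 and 6.41 in S153E-RKIP and 6.31, 6.39 and 6.32 in control. All S153E-RKIP arrays were above all control arrays, the nearest by a narrow margin, with a difference of 0.17 (SE 0.069, limma adjusted p = 0.296). ADAMTS5, the other main aggrecanase, had 3.89, 3.85 and 4.04 in S153E-RKIP and 4.04, 4.11 and 4.26 in control. The highest S153E-RKIP array equalled the lowest control array and the difference was -0.21 (limma adjusted p = 0.260), but its 4 probe sets disagreed in sign and had mean signals of at most 4.03, near the bottom of the range. ADAMTS15, an aggrecanase, had 6.54, 7.09 and 7.14 in S153E-RKIP and 7.08, 7.10 and 7.28 in control. Only S153E-RKIP replicate 1 was clearly low, and the difference of -0.23 (SE 0.15, limma adjusted p = 0.484) was -0.039 without it. ADAMTS20, the closest relative of ADAMTS9, had mean signals of 3.92 in S153E-RKIP and 3.77 in control and was not called (0.15, limma adjusted p = 0.262).

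**Figure D4:**
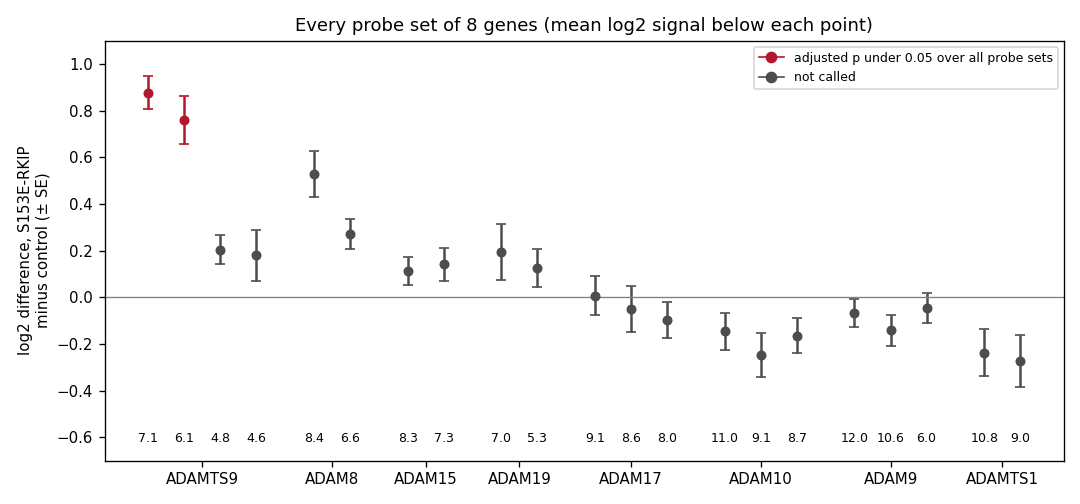
Log2 difference, S153E-RKIP minus control, with its SE, for every probe set of 8 members, brightest first within a gene, with the mean log2 signal below each point. The brighter pair of ADAMTS9 (0.88 and 0.76) is called over all probe sets (red), and all 3 probe sets of ADAM10 lie below 0.

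The procollagen N-propeptidases ADAMTS2, ADAMTS3 and ADAMTS14 trim procollagen so that fibrils can form, and none was called. ADAMTS3 had 4.64, 4.43 and 5.09 in S153E-RKIP and 4.44, 4.22 and 4.13 in control. S153E-RKIP replicate 3 stood well above the rest and the groups overlapped by a narrow margin, and the difference of 0.46 had a wide error (SE 0.16, limma adjusted p = 0.220). Without that replicate it was 0.27. ADAMTS12, which cuts the cartilage protein COMP, had 9.01, 9.19 and 9.18 in S153E-RKIP and 9.37, 9.33 and 9.22 in control. The groups did not overlap, with a difference of -0.18 (SE 0.073, limma adjusted p = 0.290), and its dimmer probe set had a difference of 0.088.

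ADAMTS13, which cuts von Willebrand factor, had 6.16, 6.41 and 6.14 in S153E-RKIP and 6.07, 6.01 and 6.13 in control, and was not called (0.17, limma adjusted p = 0.369). Its groups did not overlap, and S153E-RKIP replicate 2 lay well above the other arrays. None of the other 6 measured ADAMTS genes was called, with differences from -0.098 to 0.12, among them ADAMTS18 (0.12, SE 0.067, limma adjusted p = 0.431). ADAMTS19 had the same signal, 4.32, on 5 of the 6 arrays, and the exception was S153E-RKIP replicate 3 with 4.03. Of the 5 ADAMTSL genes, whose proteins bind fibrillin microfibrils or other matrix parts without cutting them, none was called, and differences ran from -0.16 to 0.19. ADAMTSL3, the upper end, had 6.21, 6.15 and 5.93 in S153E-RKIP and 5.98, 5.81 and 5.92 in control, overlapping groups (limma adjusted p = 0.332).

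Across the 41 members, 28 had a difference above 0 and 13 below. The median difference was 0.068, against 0.010 over all genes, and it ran from 0.043 to 0.074 under the alternatives that kept 1 value for each of the 41. Dim genes tended upward on these arrays as a whole: 68.9% of all genes at or below the median signal had a difference above 0, against 38.4% of those above it. Of the 28 dim members, 21 were above 0, and the 28 had a median of 0.10 (all dim genes 0.053), and the 13 brighter members had a median of 0.0067 (all brighter genes -0.029). Groups did not overlap for 11 members (26.8%), 8 higher and 3 lower, beside 20.1% of all genes. At an unadjusted p under 0.05 there were 10 members (24.4%), 7 higher and 3 lower, beside 15.7% of all genes, 7.75% higher and 7.92% lower. For 37 of the 41 the 95% confidence interval lay within 0.5 of 0 on either side.

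Of the 33 members with several probe sets, 12 had all of them above 0, 5 had all below and 16 were mixed. Among members that lie within 500 kb of each other, ADAMTS1 and ADAMTS5 are 72.5 kb apart on chromosome 21 and had differences of -0.24 and -0.21. ADAMTS8 and ADAMTS15, 20.0 kb apart on chromosome 11, had -0.013 and -0.23. The probe set that ADAM29 shares with another gene had a difference of 0.14 (limma adjusted p = 0.493 over all probe sets).

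Genes that work with these proteases were described from 4 lists. The lists were chosen with earlier results of these data known, so their shares of called genes are description and no test of enrichment. TIMPs and RECK are natural inhibitors of metalloproteases, each acting on only some of them. Which members of this family they hold back in these cells was not tested. Of 5 measured, TIMP2 fell and the other 4 were not called, beside 1.21% of all genes called lower. TIMP2 had 11.08, 11.29 and 11.32 in S153E-RKIP and 11.64, 11.62 and 11.57 in control, groups well apart, with a difference of -0.38 (SE 0.075, limma adjusted p = 0.0489). The call was lost without any 1 of the 6 arrays (limma adjusted p from 0.0620 to 0.213). TIMP4, a further TIMP, had 5.32, 5.74 and 5.77 in S153E-RKIP and 5.97, 6.26 and 6.34 in control. Its groups did not overlap, and its difference of -0.57 (SE 0.14), of greater size than that of TIMP2, was not called (limma adjusted p = 0.0917). TIMP4 was read by 1 probe set with a mean signal of 5.90, below the median of all genes, against 11.42 for TIMP2. TIMP3, the TIMP that holds back ADAM17 and the aggrecanases, had a difference of -0.28 (SE 0.18, limma adjusted p = 0.473). TIMP3 and TIMP4 were named after their values were seen.

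None of 14 genes for maturation and trafficking was called, and 1 had an unadjusted p under 0.05, beside 15.7% of all genes. This list holds furin-type convertases that remove the prodomain, the iRhoms that carry ADAM17, and the tetraspanins that carry ADAM10. TSPAN5, a tetraspanin partner of ADAM10, had 8.819, 8.759 and 8.93 in S153E-RKIP and 9.090, 9.004 and 9.004 in control. All S153E-RKIP arrays were lower, and the difference was -0.20 (SE 0.065, limma adjusted p = 0.207).

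Of 37 measured membrane proteins known to be shed, 4 rose and 33 were not called, beside 0.688% of all genes called higher. The median difference of the 37 was 0.052, against 0.010 over all genes. Since the list was chosen with earlier results known, these values cannot tell if shed proteins rise more often than other genes. ICAM1, a leukocyte adhesion molecule, rose by 1.17 (SE 0.11, limma adjusted p = 0.00194). TGFA, an EGF receptor ligand freed by ADAM17, had 8.72, 8.79 and 8.74 in S153E-RKIP and 8.09, 8.18 and 8.09 in control. The groups were far apart, and the difference was 0.63 (SE 0.057, limma adjusted p = 0.00140). HBEGF, a further EGF receptor ligand, rose by 0.50 (SE 0.059, limma adjusted p = 0.00452), a call lost when its probe sets were averaged (limma adjusted p = 0.0906). EREG, BTC and EGF, EGF receptor ligands in the same list, had differences of -0.26, -0.18 and -0.060 and were not called (limma adjusted p = 0.341, 0.300 and 0.634). BTC and EGF were dim, with mean signals of 3.60 and 3.62. These ligands were named after their values were seen.

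Of 19 ADAMTS matrix substrates, TFPI2 and SDC4 rose and 17 were not called, beside the same 0.688% of all genes. The same limit from the choice of the list holds here. TFPI2, a matrix-bound protease inhibitor cut by ADAMTS1, had 10.83, 10.99 and 11.03 in S153E-RKIP and 10.02, 10.19 and 10.19 in control. Its groups did not overlap, with a difference of 0.82 (SE 0.076, limma adjusted p = 0.00155). SDC4, a cell surface proteoglycan that stands in both lists, rose by 0.37 (SE 0.062, limma adjusted p = 0.0255), and its call was kept without control replicate 1 (limma adjusted p = 0.0499) and lost without any other array (0.0546 to 0.133). Versican and aggrecan, the proteoglycans that ADAMTS9 cuts, had differences of -0.053 and 0.25 and were not called (limma adjusted p = 0.853 and 0.365). Both had mean signals below the median of all genes (5.05 and 6.26), and aggrecan was read by a probe set ending in _x_at. They were named after their values were seen.

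**Figure D5:**
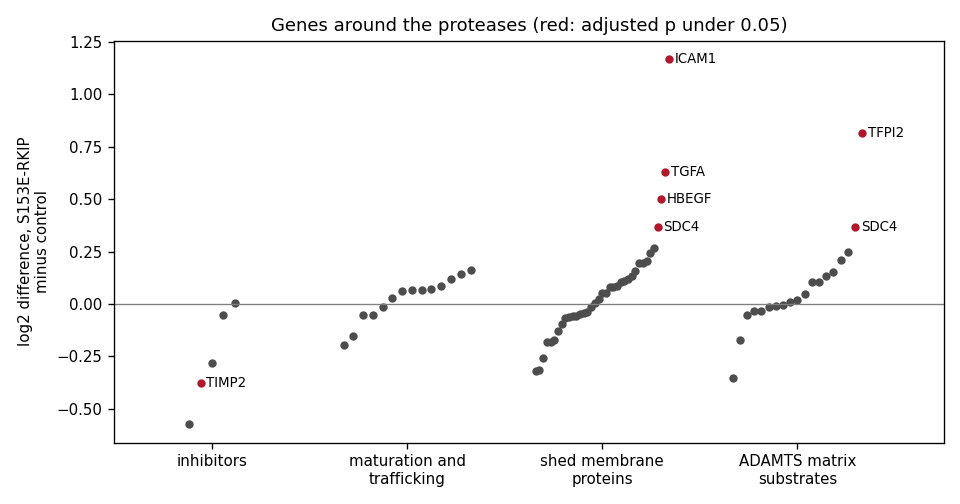
Log2 difference, S153E-RKIP minus control, of each measured gene in the lists of inhibitors (5), maturation and trafficking genes (14), shed membrane proteins (37) and ADAMTS matrix substrates (19), ordered by value within a list. Red marks called genes, of which TIMP2 (-0.38) lies below 0 and ICAM1 (1.17), TFPI2 (0.82), TGFA (0.63), HBEGF (0.50) and SDC4 (0.37) lie above it.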

How the data were processed

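Total RNA from 1833 cells was labelled from 1 µg and hybridised to HG-U133 Plus 2.0 arrays, per the labels' protocols. The deposited values are log2 signals, 1 for each probe set and array, made by the authors with RMA per the submitters' processing notes. No RMA version is given in the sources used here, and probe sets were named through GEO's platform annotation. Values were used as deposited, without scanner output, so no probe set has a detection call.

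Of 54675 probe sets, 62 controls were left out, 41091 had 1 gene symbol, 1801 had several and 11721 had none. Symbols were matched to RefSeq (GRCh38.p14) by gene identifier for 41037, and 0 changed. Each gene was read by its brightest probe set. Groups came from sample titles. S153E-RKIP was compared with control in limma 3.58.1 under R 4.3.3 (lmFit, eBayes, two-sided), with Benjamini-Hochberg adjustment over 19775 genes and a call at an adjusted p under 0.05. At that threshold 376 genes were called. The fit was tested on simulated data, where it recovered 24 of 50 genes changed 1.3-fold, 40 of 50 changed 1.5-fold and 49 of 50 changed 2-fold. Small differences can thus go uncalled. Figures used matplotlib 3.10.9, and promoter sequences are RefSeq's.

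The members and gene lists were chosen with earlier results of these data known. The named members are 10 main ADAM and ADAMTS genes, every member with an unadjusted p under 0.05, the 5 brightest, the 5 greatest differences among those whose higher group mean exceeded the median signal, and the smallest p in each role list. In the lists of other genes the called ones were named, up to 6, or the smallest p where none was called. The results were recomputed with each array dropped, with a replicate block, at a stricter threshold, with array weights, with another variance model, after 3 further normalisations, under 2 filters on dim genes, without _x_at probe sets, with averaged probe sets and over all probe sets.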

Additional observations from a re-analysis of the deposited data

How the results depend on the processing

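No member tested was called lower under any of the 18 alternatives (13 and 21 members passed the filters on dim genes), and ADAMTS9 was called higher in all 18 (limma adjusted p from 7.35e-05 to 0.00929). The count of members called higher was 1 in place of 2 at an adjusted p under 0.01, and 1 or 2 with an array left out, where ADAM8 was lost. Tested over all probe sets ADAM8 had an adjusted p of 0.0529. The number of genes called, 376 as reported, was 600 with trend and robust estimation, 147 at an adjusted p under 0.01, and 124 to 303 with an array left out. With each probe set tested by itself the count is of probe sets, 574 of 54613, and the 2 of members are both of ADAMTS9. ADAM17 changed sign with the mean of its probe sets (-0.047), with equal array medians (-0.014) and with an array left out (-0.044 to 0.083), and ADAM22 did so without probe sets ending in _x_at (-0.032). HMGA2 turned to 0.011 after quantile normalisation again, 0.022 after loess and -0.059 to 0.0034 with an array left out. The cause was not tested. With the replicate block 332 genes were called, ADAM8 and ADAMTS9 among them (limma adjusted p = 0.0136 and 0.00261), while TIMP2 and SDC4 were not (0.0800 and 0.0585). Deviations of same-numbered arrays correlated at 0.134, 0.259 and -0.0444 for replicates 1, 2 and 3. For arrays with different numbers the correlations ran from -0.265 to 0.133. With 3 arrays a group, these values cannot decide if the numbers pair the samples. TIMP2 was also lost after quantile normalisation again (0.0874), after loess (0.0716) and over all probe sets (0.0724). Its limma adjusted p was under 0.05 in 8 of the 12 alternatives that kept all arrays, lowest with averaged probe sets (0.00417). With an array left out it was under 0.05 in 0 of 6. Signal over background was not measured, and 28 of the 41 members had a mean signal at or below the median of all genes.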
